A study of Mus with 2 samples.

Results

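The 10 smooth muscle contractile genes Acta2, Tagln, Myh11, Cnn1, Actg2, Des, Tnnt2, Actc1, Myl9 and Cald1 were followed across the cell classes of the newborn mouse kidney. They were chosen by symbol among the 28693 features of the count tables, and all 10 were matched, each to a single Ensembl gene. RNA was counted in single cells of kidneys from mice at P0, the day of birth, with the genotype Rbpj c/- ; Foxd1cre/+. In these mice the floxed Rbpj allele is deleted in the renal interstitium by a Cre recombinase driven from Foxd1, and the product of Rbpj is the transcription factor that cleaved Notch receptors join on DNA. The series design names 4 libraries. The 2 mutant libraries, here replicates 1 and 2, form 1 group, and the control libraries (Rbpj c/+ ; Foxd1cre/+) were not analysed here. Each value below therefore compares cell classes within mutant kidneys, and none measures the effect of the deletion. The labels do not say whether a library came from 1 animal or from pooled kidneys.

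Smooth muscle shortens when the motor myosin Myh11, switched on by phosphorylation of its regulatory light chain Myl9, pulls on thin filaments built from the smooth muscle actins Acta2 and Actg2. Tagln, Cnn1 and Cald1 bind these filaments and tune their sliding, and Des forms the intermediate filaments that tie the contractile units together. Actc1 and Tnnt2 are the actin and the tropomyosin-binding troponin subunit of heart muscle, and both are also made in some immature or visceral smooth muscle. In the kidney, Foxd1-expressing progenitors give rise to interstitial stroma, mesangial cells, pericytes and the smooth muscle of renal arterioles. Acta2, Myl9 and Cald1 are also made outside muscle, in fibroblasts, pericytes and other motile cells.

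Gene positions are those of RefSeq on GRCm38 (mm10), the build of the count tables, and identifiers are those of the tables. The actin genes are Acta2 (ENSMUSG00000035783, chr19:34240336-34255585), Actg2 (ENSMUSG00000059430, chr6:83512909-83536251) and Actc1 (ENSMUSG00000068614, chr2:114047282-114052875). The myosin genes are Myh11 (ENSMUSG00000018830, chr16:14194527-14292188) and Myl9 (ENSMUSG00000067818, chr2:156775408-156781657). The filament-binding genes are Tagln (ENSMUSG00000032085, chr9:45929628-45936058), Cnn1 (ENSMUSG00000001349, chr9:22099221-22109221) and Cald1 (ENSMUSG00000029761, chr6:34598495-34775469). Tnnt2 is ENSMUSG00000026414 (chr1:135836315-135852268) and Des is ENSMUSG00000026208 (chr1:75360292-75368579). The actins are close paralogs, so reads shared between them could be lost or split, and the levels of Acta2, Actg2 and Actc1 are uncertain to that extent.

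The libraries had 163405630 (replicate 1) and 135436576 (replicate 2) unique molecular identifiers (UMIs). Only barcodes with at least 2000 UMIs and at most 10% mitochondrial UMIs were kept, 6220 in replicate 1 and 5149 in replicate 2, at median depths of 11987.5 and 12307 UMIs. Of the kept barcode sequences, 6 occurred in both libraries. Each cell was placed by a gate, the class whose marker list scored highest with at least 3 of its markers detected, and none of the 10 genes was a marker. Names end in "-like" because they rest on markers alone. The gates held 1021 and 990 stroma-like cells and 330 and 143 mural-like cells (pericytes and vascular smooth muscle) in replicates 1 and 2. The mural gate was broad: its summed mural markers reached 1347 and 1457 CPM (UMIs per 1000000 UMIs of the class), against 697 and 575 CPM in stroma-like cells. Its summed stroma markers were still 3099 and 3664 CPM, against 8220 and 7990 CPM. Cells with markers of more than 1 lineage (153 and 72) were called mixed, and 230 and 243 cells stayed ungated. A gate on ureteric epithelium markers gets no class name, because none of its own markers was among its 10 leading genes. The targeted gene, Rbpj, stood at 27.0 and 26.2 CPM in stroma-like cells, below the 61.7 and 58.6 CPM of nephron progenitor-like cells. The labels do not state which exons are deleted, and tags from 3' ends do not check the deletion.

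Stroma-like and mural-like cells were the top classes in both libraries for 7 of the 10 genes. The exceptions were Tagln and Actc1, whose levels in podocyte-like cells were like those in stroma-like cells, and Des, which nephron progenitor-like cells shared. Actc1 was found in only 0.727% and 0.775% of podocyte-like cells. Acta2 stood at 1227 CPM in replicate 1 and 1020 CPM in replicate 2 in stroma-like cells, and at 1577 and 1892 CPM in mural-like cells. Podocyte-like cells followed with 177 and 209 CPM, then endothelial-like cells with 78.7 and 54.7 CPM and early nephron-like cells with 52.9 and 59.6 CPM. The last pair overlapped between libraries. The other gates lay between 3.83 and 48.3 CPM. Barcodes of 10 to 100 UMIs, which carry free RNA, had 160 and 148 CPM of Acta2, and erythroid-like cells had 14.1 and 8.20 CPM.

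**Figure D1:**
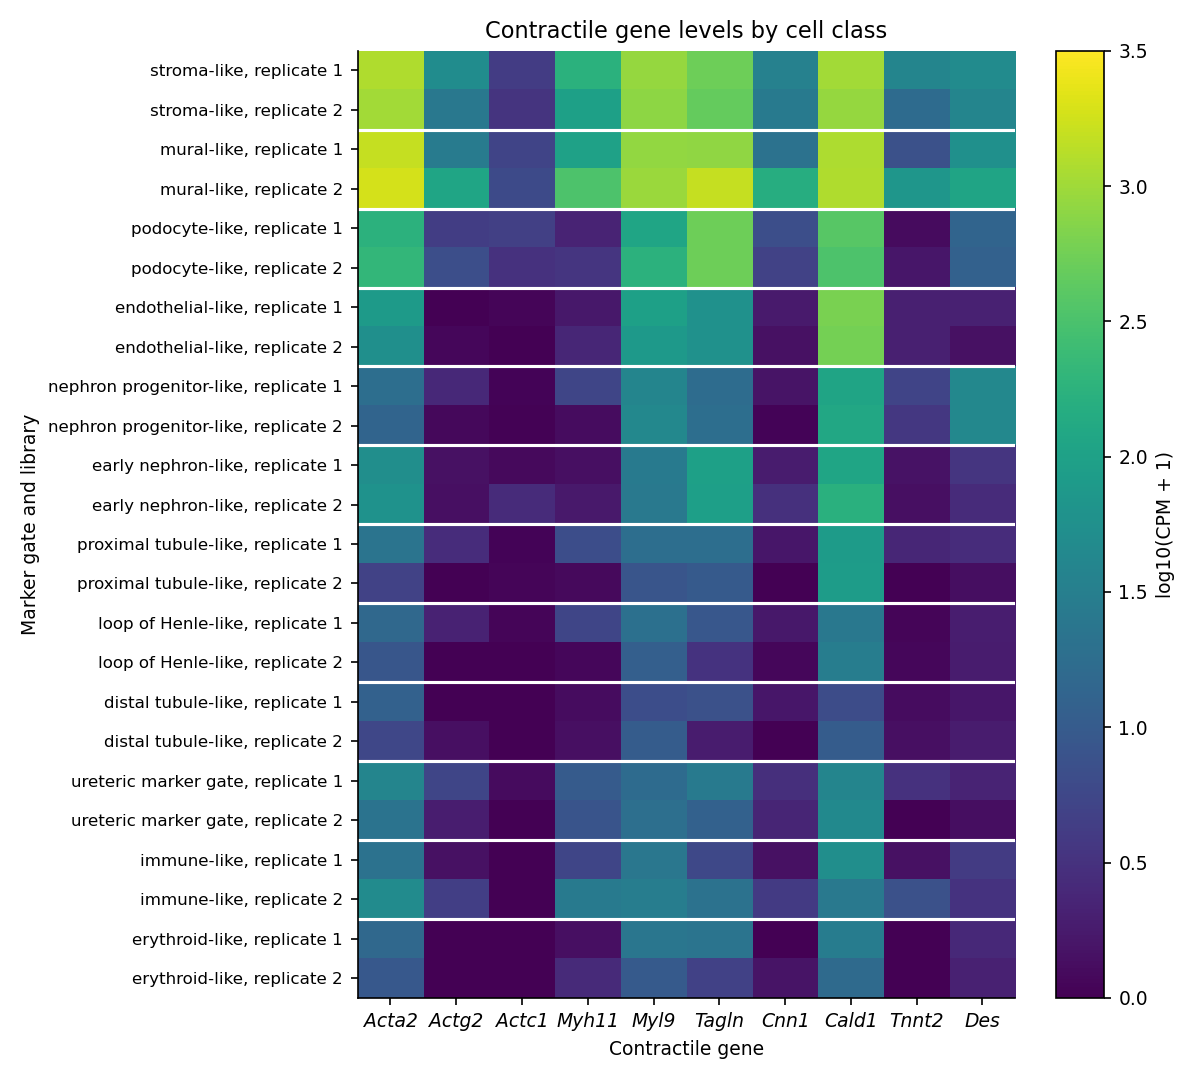
Level of each contractile gene, as log10(CPM + 1), in 12 marker gates of replicates 1 and 2 (rows, 2 per gate). The stroma-like and mural-like rows are the brightest for most genes. Des is also bright in nephron progenitor-like cells (42.7 and 42.2 CPM), Tagln in podocyte-like cells (534 and 532 CPM) and Cald1 in endothelial-like cells (618 and 591 CPM).

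All 10 genes were higher in stroma-like cells than the mean log level over the 10 gated classes outside stroma and mural cells. This was a test on UMIs summed per library and class (edgeR's quasi-likelihood test, library as a block, Benjamini-Hochberg adjustment over 15540 genes). A gene is called here at an adjusted p under 0.05, and 56.2% of all genes tested were called in this comparison, 32.6% higher and 23.5% lower. The log2 fold change ran from 3.56 ± 0.10 (SE) for Cald1 to 6.23 ± 0.52 for Actg2. Acta2 was higher by 5.19 ± 0.16, Myh11 by 5.85 ± 0.38 and Tagln by 4.18 ± 0.19. The median over the 10 genes was 5.01. Means over classes, here and in the comparisons below, were taken of log levels. Where a single class is high, as podocyte-like cells are for Tagln, the fold is larger than against the mean CPM. With 2 libraries, the p-values measure the spread between these libraries and classes, which may be technical.

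The share of a gene's UMIs by class set the genes apart. Stroma-like cells made up 8.13% and 10.1% of all UMIs of kept barcodes and held 68.0% and 58.1% of the Myh11 UMIs. They held 64.2% and 41.8% of the Tnnt2 UMIs, 53.8% and 47.1% of the Actg2 UMIs, and 31.0% and 34.3% of the Cald1 UMIs. For Tagln, podocyte-like cells held 21.1% and 23.3%, against 26.6% and 30.3% in stroma-like cells. Many Actc1 UMIs lay in cells with no class: mixed cells held 42.2% and 3.09%, and ungated cells held 16.1% and 47.5%. Single cells made up most of the larger shares: 1 mixed cell of replicate 1 had 74 of 218 UMIs, and 1 ungated cell of replicate 2 had 70 of 162.

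The genes also differed in how many cells carried them. After thinning each stroma-like cell to 4000 UMIs, which left out 48 and 46 shallower cells, Cald1 was detected in 96.3% and 94.6% (99.1% and 98.1% of all stroma-like cells before thinning). Myl9 was detected in 82.9% and 80.9% (91.8% and 92.1% before), Acta2 in 65.3% and 57.1% (74.7% and 68.1%), and Tagln in 35.4% and 31.6% (42.3% and 38.7%). Des was detected in 14.0% and 11.9% (26.4% and 21.2% before). Myh11 (6.27% and 7.31%), Cnn1 (4.01% and 4.66%), Actg2 (2.77% and 1.80%), Tnnt2 (2.16% and 1.48%) and Actc1 (0.925% and 0.953%) were found in few cells. Before thinning these shares were 8.91% and 10.6% for Myh11, 5.09% and 6.67% for Cnn1, 3.33% and 2.42% for Actg2, 2.74% and 1.52% for Tnnt2 and 1.57% and 1.21% for Actc1. In thinned erythroid-like cells the same shares were 4.40% and 3.74% for Cald1, 4.03% and 3.27% for Myl9 and 3.30% and 2.34% for Acta2. Tagln stood there at 1.10% and 1.87%, and Cnn1, Actg2, Tnnt2 and Actc1 were not detected in 273 and 214 cells, which allows shares of cells with a UMI at this depth of up to 1.34% and 1.71% (exact binomial 95% upper bounds, counting error only) and sets no limit on cells that express the genes. Median depth before thinning was 9573 and 9350 UMIs in stroma-like and 4174 and 4487 UMIs in erythroid-like cells. The 50 kept barcodes with the most UMIs of a gene held 90.2% and 86.5% of all Myh11 UMIs and 94.1% and 97.8% of all Actg2 UMIs. For Cald1 the 50 highest barcodes held 9.91% and 11.4%, and for Des 26.3% and 24.3%.

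Mural-like cells were set against stroma-like cells to ask which contractile genes separate the vessel wall from the interstitium. Of the 10 genes 1 was called, against 2.41% of all genes tested (1.09% higher and 1.32% lower). Tagln was higher in mural-like cells by a log2 fold change of 1.17 ± 0.28 (SE), with an adjusted p of 0.023 by edgeR's quasi-likelihood test. Tagln stood at 828 and 1575 CPM in mural-like cells and at 526 and 466 CPM in stroma-like cells, so the groups did not overlap. The difference was 0.60 in replicate 1 alone and 1.61 in replicate 2 alone, and the call was lost under 5 of the alternatives, with adjusted p-values from 0.050 (mitochondrial limit of 20%) to 0.66 (DESeq2).

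The other 9 genes were not called, though for Acta2, Des, Cald1 and Actc1 both mural-like values lay above both stroma-like values. Acta2 was higher by 0.55 ± 0.26 with an adjusted p of 0.42, and Des by 0.75 ± 0.21 with an adjusted p of 0.071 (both by edgeR's quasi-likelihood test). Des stood at 56.2 and 111 CPM in mural-like cells, and it was called under 4 of the alternatives, with adjusted p-values over all alternatives from 1.1e-04 (mitochondrial limit of 5%) to 0.43 (DESeq2). Myh11 stood at 99.5 and 336 CPM in mural-like cells and at 172 and 96.9 CPM in stroma-like cells. Cnn1 stood at 19.7 and 150 CPM against 33.8 and 26.2 CPM, and Actg2 at 27.5 and 113 CPM against 50.1 and 24.3 CPM. Tnnt2 stood at 6.48 and 67.2 CPM against 38.3 and 15.6 CPM. For Myh11, Cnn1, Actg2 and Tnnt2 the mural-like value was below the stroma-like value in replicate 1 and above it in replicate 2. Cells with UMIs of both Actg2 and Tnnt2, 3 and 4 in the mural gate and 23 and 13 in the stroma gate, held much of this RNA. In the mural gate they had all 25 Tnnt2 UMIs of replicate 1 and 101 of 106 in replicate 2, and 112 of 384 and 335 of 530 Myh11 UMIs. The share of Tnnt2 follows in part from the choice of these cells by that gene. Without these cells, a choice made after the values were seen and described with no test, Myh11 stood at 71.1 and 133 CPM in mural-like and at 24.8 and 35.5 CPM in stroma-like cells. Cnn1 then stood at 15.7 and 93.8 CPM against 6.89 and 11.98 CPM, so both genes were higher in mural-like cells within each library. Myl9 (863 and 927 CPM against 886 and 798 CPM) and Cald1 (1174 and 1224 CPM against 1023 and 883 CPM) were not called. The gate's size also differed between the libraries, with 330 and 143 cells; whether this moved the values was not tested.

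Several contractile genes were also found outside the mesenchyme, in podocyte-like cells. Podocytes are the epithelial cells that wrap the glomerular capillaries. Of the 10 genes 8 were called higher there than the mean log level over the 9 other non-mesenchymal classes. This compares with 30.4% of all genes tested (24.5% were lower and 54.9% called in all). Tagln stood at 534 and 532 CPM, and its log2 fold change of 4.61 ± 0.19 (SE) had an adjusted p of 5.5e-15 by edgeR's quasi-likelihood test. Acta2 was higher by 2.81 ± 0.21, Myl9 by 2.35 ± 0.16, Des by 2.29 ± 0.30 and Cald1 by 2.26 ± 0.12. Cnn1 was higher by 2.62 ± 0.70 and Actg2 by 3.45 ± 1.05. Actc1 was higher by 5.41 ± 0.80, on 29 UMIs in replicate 1 and 14 in replicate 2. These 3 genes were found in few podocyte-like cells: before thinning, Cnn1 in 2.18% and 2.84%, Actg2 in 1.64% and 1.29% and Actc1 in 0.727% and 0.775%. Myh11 (1.25 and 2.43 CPM) and Tnnt2 (0.249 and 0.606 CPM) were not called. Summed stroma markers reached 565 and 732 CPM in podocyte-like cells, against 236 and 140 CPM in endothelial-like cells and 8220 and 7990 CPM in stroma-like cells; their part in the result was not tested. In podocyte-like cells thinned to 4000 UMIs, Tagln was detected in 21.8% and 24.4% of cells and Acta2 in 11.7% and 14.3%, against 32.7% and 34.1% (Tagln) and 16.7% and 17.3% (Acta2) before thinning.

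In endothelial-like cells, which line the vessels, Cald1 had the largest called change of the 10 genes. In the same form of test 4 genes were called higher, a share near the 32.4% of all genes tested, and 1 was called lower, against 24% (56.4% called in all). Cald1 stood at 618 and 591 CPM, a log2 fold change of 3.26 ± 0.11 (SE) with an adjusted p of 8.7e-17 by edgeR's quasi-likelihood test. Thinned to 4000 UMIs, 84.6% and 84.1% of endothelial-like cells had a Cald1 UMI, against 33.1% and 36.7% of nephron progenitor-like cells; before thinning the shares were 91.8% and 91.3% against 76.2% and 75.7%. Myl9 was higher by 1.70 ± 0.17, Acta2 by 1.27 ± 0.24 and Tagln by 1.22 ± 0.27. The Tagln call was lost with DESeq2 (adjusted p of 0.059) and when gates needed only 2 markers (adjusted p of 0.056). Summed mural markers were 233 and 183 CPM in endothelial-like cells, 52.7 and 53.8 CPM in podocyte-like cells and 28.1 and 16.4 CPM in erythroid-like cells; their part in the result was not tested. Des was lower by 1.73 on the log2 scale (SE 0.59, adjusted p of 0.015 by the same test), at 1.10 and 0.453 CPM, and with 4 markers needed per gate its adjusted p was 0.051.

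Des had a separate domain in nephron progenitor-like cells, the Six2-positive cap mesenchyme that forms nephrons. It stood there at 42.7 and 42.2 CPM and in stroma-like cells at 47.8 and 38.2 CPM, so the classes overlapped. Nephron progenitor-like cells held 49.2% and 55.3% of all Des UMIs and 19.995% and 22.5% of all UMIs. In early nephron-like cells, the next stage, Des stood at 2.51 and 1.66 CPM, and in erythroid-like cells at 1.52 and 1.09 CPM. Summed over libraries, the level in nephron progenitor-like cells was 31.6 times that in erythroid-like cells (exact conditional 95% interval 14.5 to 86.2, counting error only). Thinned to 4000 UMIs, 12.4% and 16.4% of nephron progenitor-like cells had a Des UMI, against 0.733% and 0.467% of erythroid-like cells (41.8% and 44.3% against 0.772% and 0.541% before thinning). Free RNA held 22.2 and 6.05 CPM of Des. In the same cells Acta2 stood at 17.2 and 12.5 CPM and Tagln at 16.5 and 17.2 CPM, against 14.1 and 8.20 CPM (Acta2) and 21.3 and 3.83 CPM (Tagln) in erythroid-like cells. Tnnt2, on 107 and 59 UMIs, stood at 4.24 and 2.71 CPM, with no UMI in erythroid-like cells, and 17.5% and 16.1% of all Tnnt2 UMIs lay in nephron progenitor-like cells. It was found in 7.08% and 5.15% of these cells (1.96% and 0.795% after thinning), against 2.74% and 1.52% of stroma-like cells (2.16% and 1.48% after thinning).

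Among the 4 stromal sub-gates, most contractile genes were lowest in cortical and highest in medullary cells. Stroma-like cells were split by further markers into cortical (336 and 333 cells), medullary (162 and 188), mesangial (263 and 181) and adventitial fibroblast-like cells (118 and 108), with 142 and 180 cells in none of these. Each sub-gate was set against the mean log level of the other 3 in a fit of 14777 genes. A sub-gate with no UMI, as cortical cells were for Tnnt2, enlarges the folds of the others. Tagln stood at 61.7 and 27.4 CPM in cortical stroma-like cells, 448 and 298 CPM in mesangial stroma-like cells and 743 and 714 CPM in adventitial fibroblast-like cells. In medullary stroma-like cells it stood at 899 and 1260 CPM, and no neighbours in this order overlapped. Acta2 stood at 563 and 301 CPM in cortical and at 1801 and 2129 CPM in medullary stroma-like cells. Mesangial (1230 and 973 CPM) and adventitial fibroblast-like cells (1110 and 1127 CPM) overlapped between these. Myh11 stood at 1.60 and 1.16 CPM in cortical stroma-like cells and at 282 and 166 CPM in medullary stroma-like cells.

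**Figure D2:**
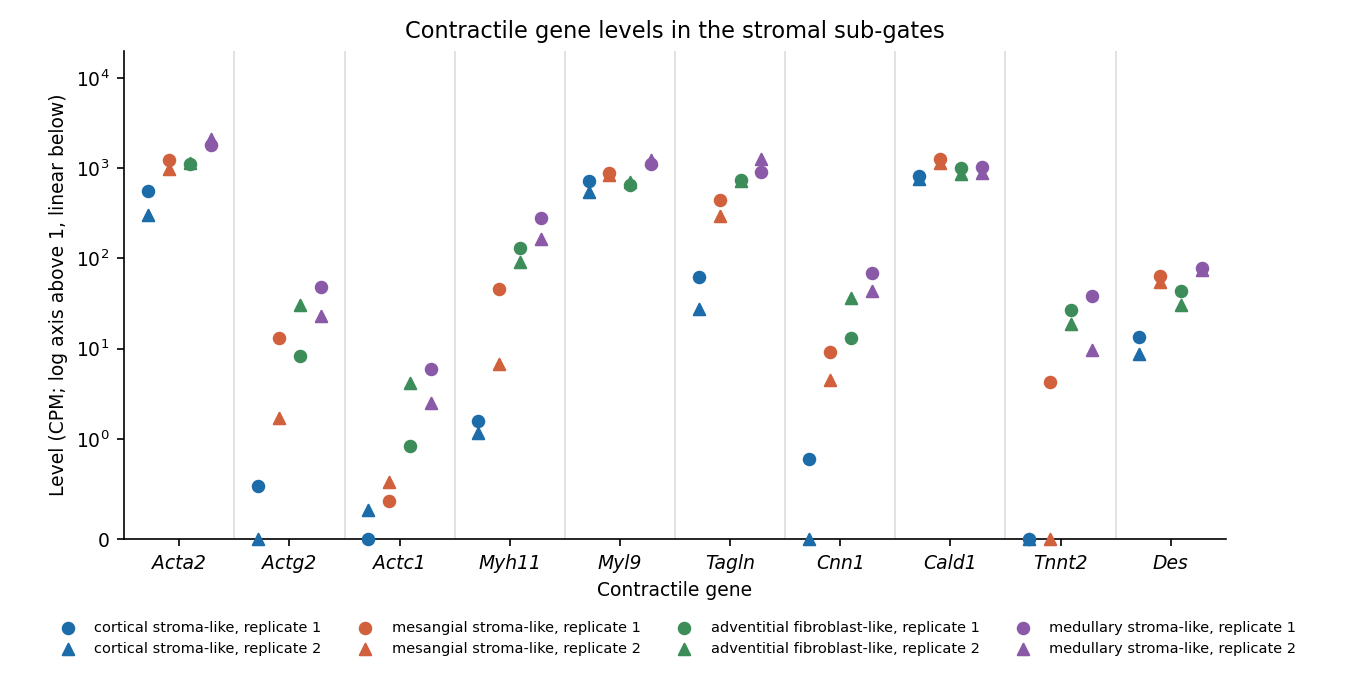
Level of each contractile gene (CPM, log axis above 1) in 4 stromal sub-gates, with 1 point per library (circle, replicate 1; triangle, replicate 2). Cortical stroma-like points are the lowest, or level with the lowest, for every gene in both libraries except Myl9 in replicate 1, where adventitial fibroblast-like cells are lower (652 against 721 CPM).

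In cortical stroma-like cells 9 of the 10 genes were called lower, against 12.7% of all genes tested (13.2% were higher and 25.9% called in all). Tagln was lower by 3.92 on the log2 scale (SE 0.40, adjusted p of 2.7e-08 by edgeR's quasi-likelihood test), Acta2 by 1.69 (SE 0.27) and Des by 2.31 (SE 0.28). Tnnt2 had no UMI in cortical stroma-like cells of either library, against 141 UMIs in the other 3 sub-gates. Its ratio of levels was 0 (exact conditional 95% interval 0 to 0.0369, counting error only). Myh11 had 10 UMIs against 1161, a ratio of levels of 0.0120 (exact conditional 95% interval 0.00574 to 0.0222). Cnn1 had 3 UMIs against 284, a ratio of 0.0147 (0.00302 to 0.0435), and Actg2 had 2 against 203, a ratio of 0.0137 (0.00165 to 0.0502). The other 3 sub-gates held 6 and 4 cells with both Actg2 and Tnnt2 UMIs, and cortical stroma-like cells held none. Without these cells, chosen by Actg2 and Tnnt2 and described with no test, Tnnt2 had 25 UMIs in the other sub-gates and a ratio of 0 (0 to 0.219). The ratio of Myh11 was then 0.0239 (0.0114 to 0.0443), that of Cnn1 0.0257 (0.00524 to 0.0764) and that of Actg2 0.0530 (0.00625 to 0.201). Actc1, with 1 UMI against 22, was not called. Myl9 and Cald1 were called lower by small amounts, with ratios of 0.675 and 0.740, and their calls were lost under 5 and 2 of the alternatives. With a mitochondrial limit of 5% the calls of Tnnt2 (adjusted p of 1) and Actg2 (0.17) were lost too.

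Medullary stroma-like cells had 8 of the 10 genes called higher, against 4.63% of all genes tested (3.49% were lower and 8.12% called in all). Tagln was higher by a log2 fold change of 2.24 ± 0.28 (SE), Acta2 by 1.28 ± 0.23, Des by 1.36 ± 0.23 and Myl9 by 0.69 ± 0.16. Myh11 was higher by 3.72 ± 0.55, Cnn1 by 3.69 ± 0.63, Actg2 by 3.27 ± 0.81 and Tnnt2 by 4.45 ± 1.26. Few medullary stroma-like cells had UMIs of the last pair: before thinning, Actg2 was found in 3.09% and 3.72% and Tnnt2 in 2.47% and 1.06%, against 22.2% and 35.1% for Myh11 and 9.88% and 17.6% for Cnn1. Cells with both Actg2 and Tnnt2 UMIs numbered 4 and 2 in this sub-gate. They had all of its Tnnt2 UMIs, which follows in part from their choice by this gene. Without them Myh11 stood at 68.9 and 140 CPM. The largest adjusted p among the 8 genes called was 0.026, for Tnnt2, by edgeR's quasi-likelihood test. Cald1, at 1018 and 883 CPM, and Actc1, at 5.95 and 2.52 CPM, were not called. With a mitochondrial limit of 5%, the adjusted p became 0.92 for Tnnt2 and 0.054 for Actg2; DESeq2 gave 0.092 for Actg2 and 0.094 for Myl9. Medullary stroma-like cells also had summed podocyte markers of 2216 and 4044 CPM, against 2264 and 1558 CPM in adventitial fibroblast-like cells, 632 and 453 CPM in mesangial and 693 and 500 CPM in cortical stroma-like cells; their part in the result was not tested.

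The other sub-gates differed in fewer genes. Mesangial stroma-like cells, which share markers with the contractile cells of the glomerular core, had 1 gene called higher, against 2.32% of all genes tested (1.97% were lower and 4.29% called in all). It was Des, at 63.1 and 54.8 CPM, which made a log2 fold change of 0.87 ± 0.23 (SE); edgeR's quasi-likelihood test gave an adjusted p of 0.030. The call was lost with DESeq2 (0.12), with 4 markers needed (0.092) and without the replicate block (0.056). Adventitial fibroblast-like cells had 3 genes called higher, against 15.9% of all genes tested (11.3% were lower and 27.1% called in all): Tagln by 1.54 ± 0.30, Myh11 by 2.50 ± 0.72 and Tnnt2 by 4.59 ± 1.41. Myh11 stood there at 129 and 91.7 CPM, and Tnnt2 at 27.0 and 18.8 CPM; with a mitochondrial limit of 5% the adjusted p of Myh11 was 0.21. Tnnt2 was found in 5.08% and 3.70% of these cells, and 1 and 2 cells with both Actg2 and Tnnt2 UMIs lay in this sub-gate. Without them Tnnt2 stood at 21.6 and 2.12 CPM and Myh11 at 58.2 and 52.9 CPM. Stromal cells in none of the 4 sub-gates had higher levels than any sub-gate of Myh11 (900 and 314 CPM), Actg2 (341 and 97.1 CPM) and Tnnt2 (255 and 70.0 CPM). This group held 17 and 9 cells with both Actg2 and Tnnt2 UMIs, and its levels without them were not calculated.

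Stroma-like cells were then split by the added feature EYFP, a fluorescent protein whose source no label gives. At least 1 EYFP UMI was found in 905 of the 1021 and 895 of the 990 stroma-like cells (88.6% and 90.4%). Other gates had it too: 47.8% and 43.4% of podocyte-like, 22.2% and 24.4% of distal tubule-like and 11.6% and 8.51% of nephron progenitor-like cells. The shares were 8.98% and 5.37% in endothelial-like cells and lowest in erythroid-like cells, at 2.12% and 0.541%. Cells without EYFP numbered 116 and 95. They had less depth, with medians of 7037.5 and 6786 UMIs against 9805 and 9504, and slightly more mitochondrial UMIs, with medians of 5.65% and 6.41% against 5.10% and 5.48%. Their summed stroma markers were higher, at 18768 and 16012 CPM against 7210 and 7364 CPM. Of the cells without EYFP, 29 and 27 were adventitial fibroblast-like and 36 and 25 lay in none of the sub-gates. The targeted gene, Rbpj, stood at 24.7 and 23.9 CPM in stroma-like cells with EYFP and at 51.3 and 56.2 CPM in those without; in mural-like cells it stood at 26.2 and 29.7 CPM against 53.4 and 63.7 CPM. The part of these differences in the results below was not tested.

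Of the 10 genes 8 were called lower in stroma-like cells with EYFP than in those without it, against 5.87% of all 15542 genes tested. None was called higher, against 5.85% (11.7% called in all). A few cells without EYFP, 22 and 12, held 81.3% and 70.8% of the Acta2 and 94.5% and 95.5% of the Myh11 UMIs of the cells without EYFP. Outside the set of such cells, described below, Acta2 and Myl9 were higher with EYFP within each library, and Tagln and Myh11 were still lower. Acta2 stood at 1022 and 916 CPM in cells with EYFP and at 3367 and 2361 CPM in cells without it, a log2 fold change of -1.52 ± 0.27 (SE) with an adjusted p of 3.4e-04. Tagln stood at 367 and 406 CPM with EYFP and at 2191 and 1234 CPM without, a log2 fold change of -2.10 ± 0.30. These p-values and errors are from edgeR's quasi-likelihood test. No values of the groups overlapped for either gene. With a mitochondrial limit of 5%, 5 of the 10 genes were called, and Acta2 (adjusted p of 0.85 by edgeR's quasi-likelihood test), Tagln (0.28) and Des (0.15) were not.

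The fold was larger for Myh11, Cnn1, Actg2, Tnnt2 and Actc1, though differences between genes were not tested. Myh11 stood at 21.8 and 38.3 CPM with EYFP and at 1738 and 849 CPM without it, a log2 fold change of -5.42 ± 0.52 (SE). Actg2 stood at 8.98 and 4.50 CPM against 480 and 278 CPM (-5.78 ± 0.62), and Cnn1 at 7.48 and 12.5 CPM against 309 and 202 CPM (-4.74 ± 0.56). Tnnt2 stood at 2.46 and 0.768 CPM against 413 and 205 CPM, a log2 fold change of -7.54 ± 0.77. Actc1, on 12 UMIs with EYFP and 44 without, changed by -5.34 ± 0.69, and Des by -1.31 ± 0.27. Myl9 (843 and 772 CPM against 1329 and 1140 CPM) had an adjusted p of 0.064, and Cald1 (1001 and 877 CPM against 1259 and 959 CPM) one of 0.54. With cells thinned to 4000 UMIs, the 8 calls remained and Myl9 was called too, with an adjusted p of 0.0043 by edgeR's quasi-likelihood test. Thinning left out 24 and 15 shallower cells without EYFP and 24 and 31 with it. EYFP was read before thinning, so this cannot even out the chance of an EYFP UMI between deep and shallow cells.

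**Figure D3:**
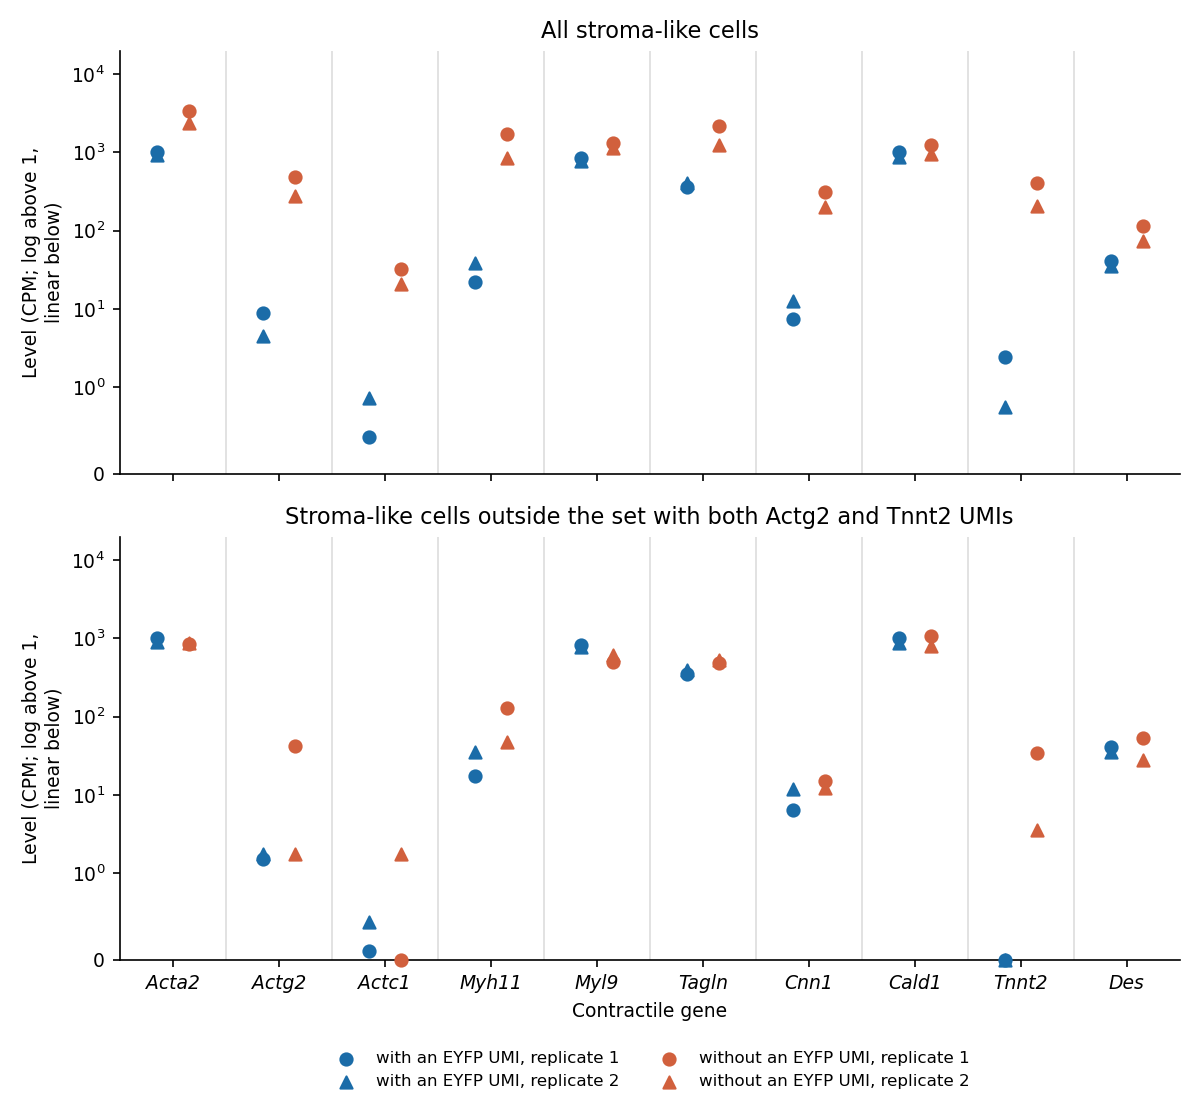
Level of each contractile gene (CPM, log axis above 1) in stroma-like cells with and without an EYFP UMI, with 1 point per library. In the upper plot, with all stroma-like cells, Myh11, Cnn1, Actg2, Tnnt2 and Actc1 lie far lower in cells with EYFP. In the lower plot, without the cells that had both Actg2 and Tnnt2 UMIs, Acta2 (1001 and 901 against 845 and 860 CPM) and Cald1 lie close together.

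A few cells held a large share of the Myh11 and Cnn1 UMIs. After the values above were seen, the stroma-like and mural-like cells with at least 1 UMI of both Actg2 and Tnnt2 were taken as a set and are described with no test. The set held 26 cells in replicate 1 and 17 in replicate 2, or 0.418% and 0.330% of kept barcodes, and 10 further cells with both UMIs lay in other gates. Of the 43 cells, 7 were mural-like, and 17 and 9 were stroma-like cells outside the 4 sub-gates. These 43 cells held 62.7% and 57.6% of all Myh11 UMIs of the kept barcodes and 46.3% and 40.8% of all Cnn1 UMIs. For genes that chose the set, the shares were 52.1% and 71.2% (Actg2) and 64.5% and 68.9% (Tnnt2). Their share was 11.2% and 11.6% for Acta2 and 1.56% and 1.67% for Cald1.

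**Figure D4:**
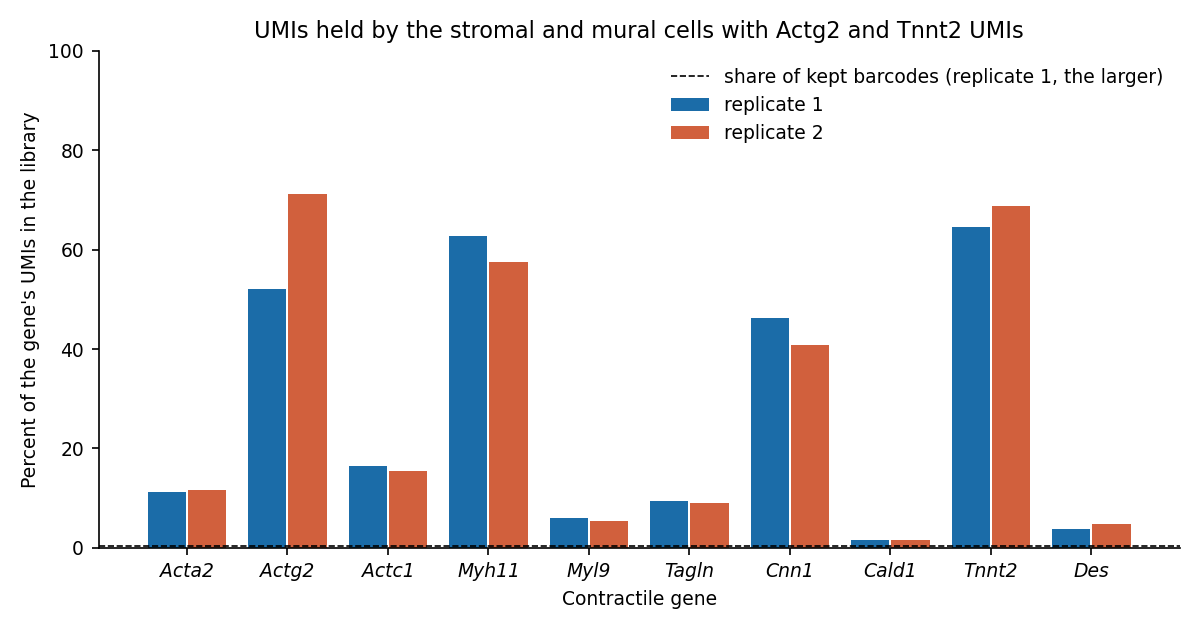
Percent of each gene's UMIs, over the kept barcodes of a library, held by the stroma-like and mural-like cells with both Actg2 and Tnnt2 UMIs (26 cells in replicate 1, 17 in replicate 2). The dashed line marks their share of kept barcodes in replicate 1, 0.418%. Actg2 and Tnnt2 chose the set; Myh11 and Cnn1 have the highest bars among the other genes.

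Each cell of the set had Acta2, Tagln, Myh11, Myl9 and Cald1 UMIs. The median cell had 69 Myh11 UMIs in replicate 1 and 60 in replicate 2, with a range of 5 to 132 and 4 to 158. Cnn1 was found in 25 of 26 and 17 of 17 cells, Des in 23 and 14, and Actc1 in 16 and 8. Summed over the set, Acta2 reached 10765 and 7626 CPM, Tagln 6873 and 5165 CPM, Myh11 5894 and 3546 CPM and Myl9 3855 and 2761 CPM. Mylk, the kinase that phosphorylates the myosin light chain, reached 4000 and 2419 CPM. Myocd, the coactivator that switches on smooth muscle genes, stood at 189 and 78.9 CPM, and Tbx18, a transcription factor of the mesenchyme around the ureter, at 239 and 105 CPM. The mural marker Rgs5 stood at 294 and 30.1 CPM. Summed mural markers reached 961 and 413 CPM, against 697 and 575 CPM in all stroma-like cells. Median depths were 9675.5 and 11450 UMIs, and Scrublet, run as an alternative to find doublets, removed 4 and 3 of these cells (15.4% and 17.6%), against 4.98% and 4.12% of all kept barcodes.

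EYFP was found in 3 of the 26 cells (11.5%, exact binomial 95% interval 2.45 to 30.2%) and in 3 of the 17 (17.6%, 3.80 to 43.4%). Its level in the set was 29.0 and 11.3 CPM, against 378 and 365 CPM in all stroma-like cells. Among stroma-like cells, 22 and 12 cells of the set lacked EYFP, and 1 in each library had it. They were 19.0% and 12.6% of the stroma-like cells without EYFP and held 94.5% and 95.5% of those cells' Myh11 UMIs. They also held 81.3% and 70.8% of the Acta2 UMIs and 83.4% and 65.4% of the Tagln UMIs of the cells without EYFP.

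Outside the set, the levels with and without EYFP lay closer together, described with no test. Acta2 stood at 1001 and 901 CPM in the 904 and 894 cells with EYFP and at 845 and 860 CPM in the 94 and 83 cells without it. Tagln stood at 353 and 396 CPM with EYFP and at 489 and 533 CPM without, and Des at 41.2 and 35.2 CPM against 52.5 and 28.0 CPM. Myl9 was higher with EYFP, at 835 and 766 CPM against 498 and 610 CPM. Myh11 was still lower with EYFP, at 17.4 and 34.8 CPM against 128 and 47.3 CPM. Cnn1 stood at 6.313 and 11.965 CPM with EYFP and at 15.002 and 12.266 CPM without. Actg2 stood at 1.498 and 1.756 CPM against 42.007 and 1.752 CPM. For both genes the levels were thus close in replicate 2 and lower with EYFP in replicate 1. Actc1 had 1 and 4 UMIs with EYFP and 0 and 1 without, too few to compare. Tnnt2 had no UMI in cells with EYFP outside the set, and 23 and 2 UMIs in those without.

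A lower mitochondrial limit removed cells of the set and other stroma-like cells. The set had median mitochondrial shares of 6.10% and 6.79%, and only 4 cells of replicate 1 and 1 of replicate 2 passed a limit of 5%. With that limit 451 and 327 stroma-like cells remained, against 1021 and 990 in the main analysis. The log2 fold change by EYFP became -0.15 for Acta2, -0.68 for Tagln and -0.74 for Des. Myl9 changed direction, to 0.37, with an adjusted p of 0.41 by edgeR's quasi-likelihood test. Myh11, Cnn1, Actg2, Tnnt2 and Actc1 stayed called as lower with EYFP. The part of the set in these changes was not tested.

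Mural-like cells were split by EYFP as well, with no test. It was found in 287 of 330 and 115 of 143 cells. Myh11 stood at 83.5 and 223 CPM in mural-like cells with EYFP and at 216 and 822 CPM in those without, and Tnnt2 at 0.885 and 27.3 CPM against 47.0 and 238 CPM. Tagln stood at 714 and 1263 CPM against 1652 and 2915 CPM, so all 3 genes had their higher level without EYFP within each library. After thinning to 4000 UMIs, Myl9 and Cald1 were found more often with EYFP. The shares of cells were 79.3% and 78.8% against 57.5% and 69.2% for Myl9, and 95.1% and 96.5% against 85.0% and 92.3% for Cald1. Cnn1, Actg2 and Des were found more often without EYFP in both libraries. Only 43 and 28 mural-like cells lacked EYFP, and 1 and 2 of them had both Actg2 and Tnnt2 UMIs, with 22 of the 22 and 70 of the 71 Tnnt2 UMIs. This share follows in part from the choice of cells by Tnnt2. Without the cells that had both, Myh11 stood at 73.7 and 104 CPM with EYFP and at 52.2 and 261 CPM without, in opposite order in the libraries, and Tagln at 707 and 900 CPM against 1508 and 2567 CPM. Acta2 then stood at 1506 and 1455 CPM with EYFP and at 1552 and 2055 CPM without (1546 and 1679 against 1808 and 2808 CPM over all mural-like cells).

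Another set was formed from the stroma-like and mural-like cells with UMIs of both Rgs5 and Notch3, markers of pericytes and vascular smooth muscle. Cells of the set with Actg2 and Tnnt2 were left out, though 3 of them also had both Rgs5 and Notch3 UMIs. The set with Rgs5 and Notch3 held 143 and 77 cells, of which 73 and 35 were mural-like and 35 and 14 cortical stroma-like. Their summed stroma markers were 4940 and 6918 CPM, against 3099 and 3664 CPM in the mural gate. EYFP was found in 91.6% and 81.8% of them. Acta2 stood at 2113 and 1721 CPM, Tagln at 963 and 1077 CPM and Myl9 at 1149 and 1013 CPM. Myh11 stood at 142 and 196 CPM, Cnn1 at 23.5 and 32.9 CPM and Actg2 at 36.0 and 47.6 CPM, all below the set with Actg2 and Tnnt2. Tnnt2 had no UMI in replicate 1 and 1 in replicate 2. Since Tnnt2 and Actg2 chose the first set, after the levels of all 10 genes were seen, these contrasts between the sets follow in part from the choice and support nothing.

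**Figure D5:**
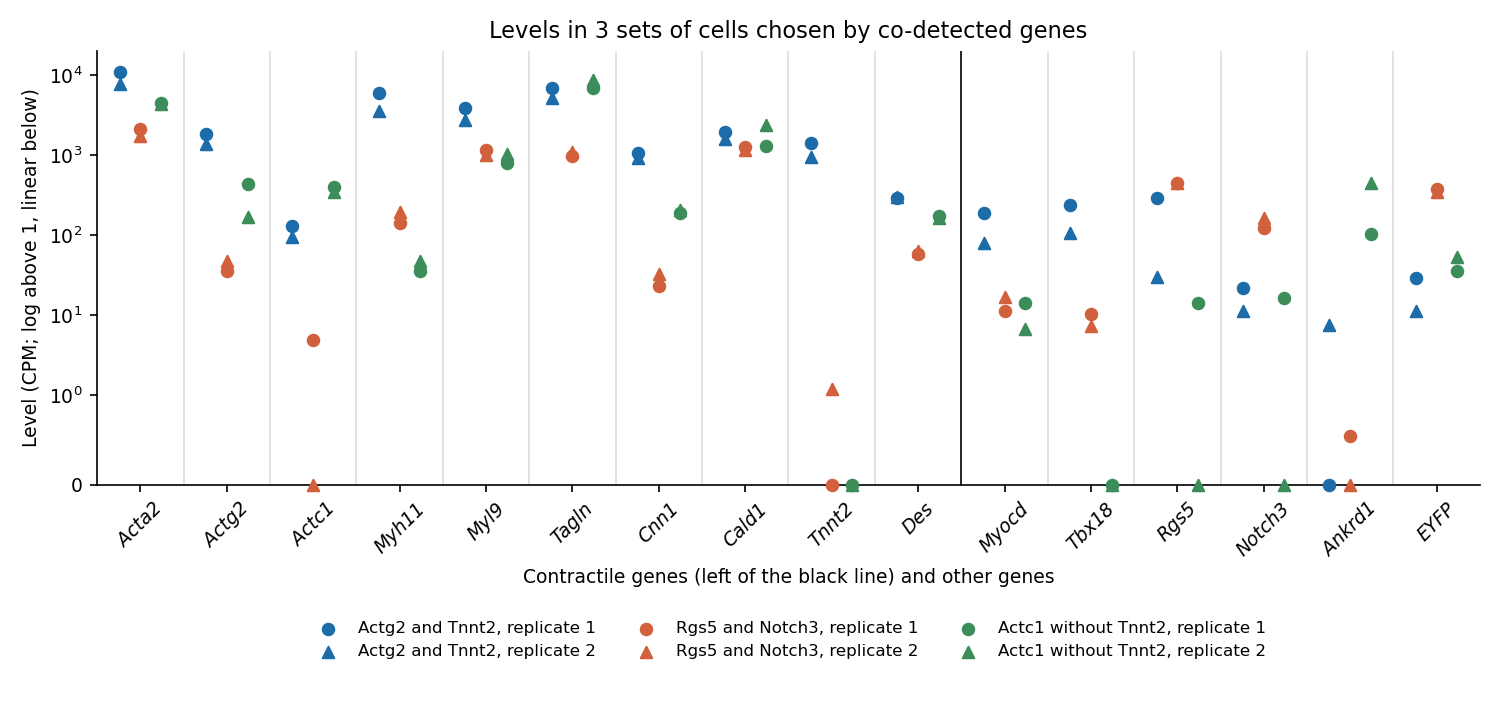
Levels (CPM, log axis above 1) of the contractile genes and of 6 other genes in 3 sets of cells chosen after the values were seen, with 1 point per library. The cells with Actg2 and Tnnt2 are highest for Myh11 (5894 and 3546 CPM), Myocd and Tbx18 and low for EYFP (29.0 and 11.3 CPM). The cells with Rgs5 and Notch3 are high for EYFP, and the cells with Actc1 and no Tnnt2 are high for Tagln and Ankrd1.

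Actc1 had a pattern of its own. It was found in only 40 kept barcodes of replicate 1 and 29 of replicate 2. The cells with at least 2 Actc1 UMIs and no Tnnt2 UMI numbered 11 and 6, and were also chosen after the values were seen. They lay in several gates: 3 and 1 were podocyte-like, 2 and 3 early nephron-like, 3 and 1 mixed, and 2 and 0 mural-like, with 1 ungated in each library. Tagln reached 6796 and 8561 CPM in these cells and Acta2 4429 and 4334 CPM, while Myh11 stood at 35.4 and 47.2 CPM. The intermediate filament gene Vim stood at 4502 and 5399 CPM, the small heat shock gene Cryab at 827 and 917 CPM, and Ankrd1, a stress-responsive gene of muscle, at 104 and 452 CPM. Their median depths, 35012 and 18295 UMIs, were above those of all kept barcodes, and Scrublet removed 2 of the 11 (18.2%) and none of the 6. Single cells weighed heavily: 1 mixed cell of replicate 1 had 74 of the 218 Actc1 UMIs, and 1 ungated cell of replicate 2 had 70 of the 162. The ungated cell also had 6 Tnnt2, 3 Myod1 and 4 Ttn UMIs, genes of striated muscle, and no UMI of Tagln, Myh11 or Cnn1; it had 3 EYFP UMIs.

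Markers of striated muscle were checked because Actc1 and Tnnt2 are also heart genes. Of 12 such markers, 8 had a UMI in the set with Actg2 and Tnnt2, with 62 UMIs in all and sums of 145 and 82.6 CPM. Ckm, the muscle creatine kinase, made up 134 and 48.8 CPM of these sums. Ckm, Myh6, Tnnc1, Tnni3, Myl7, Nppa, Myh3 and Myod1 had UMIs there, and Ttn, Actn2, Myl1 and Mb had none. The sums were above those of other gates: summed striated markers were 13.2 and 9.46 CPM in stroma-like cells and 10.8 and 8.82 CPM in nephron progenitor-like cells.

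A list of 37 further genes of the contractile machinery, of which 36 were tested, was tested in the same fits. In stroma-like cells 32 were called higher and none lower, against 32.6% of all genes tested. Among them were Synpo2, an actin-bundling protein (6.74 ± 0.24, SE), Myocd (6.31 ± 0.60), the L-type calcium channel Cacna1c (5.15 ± 0.35), the leiomodin Lmod1 (4.70 ± 0.23), the tropomyosin Tpm2 (4.48 ± 0.12) and the potassium channel subunit Kcnmb1 (4.35 ± 0.69). In mural-like against stroma-like cells 1 of the 36, Lmod1, was called (0.94 ± 0.23, adjusted p of 0.035 by edgeR's quasi-likelihood test), a share near the 2.41% of all genes tested. Podocyte-like cells had 22 called higher and 1 lower, against 30.4% and 24.5% of all genes tested, led by the skeletal actin Acta1 (5.73 ± 0.75), Myocd (3.68 ± 1.20, on 14 UMIs and 1 UMI) and Lmod1 (3.63 ± 0.33). Endothelial-like cells had 23 called higher and 2 lower, against 32.4% and 24%. There the non-muscle paralogs Cnn2 (3.04 ± 0.13) and Tagln2 (2.58 ± 0.08) and the actin-binding gene Smtn (2.64 ± 0.10) were among the leading genes.

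Among the stromal sub-gates, cortical stroma-like cells had 17 of these genes called lower and 1 higher, against 12.7% and 13.2% of all genes tested, with Kcnma1, Lmod1 and Synpo2 lower by 4.75, 2.97 and 2.69 on the log2 scale (-4.75 ± 1.19, -2.97 ± 0.50 and -2.69 ± 0.30, SE). Medullary stroma-like cells had 10 called higher and none lower, against 4.63% and 3.49%, led by Kcnma1 (3.23 ± 0.66), Synpo2 (2.25 ± 0.23) and Lmod1 (2.24 ± 0.36). Mylk was higher there by 1.15 ± 0.16. Mesangial stroma-like cells had 6 called higher and none lower, against 2.32% and 1.97%, led by Ppp1r14a, an inhibitor of myosin phosphatase (1.16 ± 0.23). Adventitial fibroblast-like cells had 4 called higher, a share below the 15.9% of all genes tested, and 9 called lower, against 11.3%, with Lmod1 higher by 1.58 ± 0.45 and Mylk lower (-0.84 ± 0.20). Of the 9 non-muscle paralogs, 7 were lower in adventitial fibroblast-like cells.

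Between stroma-like cells with and without EYFP, 14 of the 36 genes were called lower with EYFP and 6 higher, against 5.87% and 5.85% of all genes tested. Lower were Myocd (-3.37 ± 0.53, SE), Lmod1 (-3.08 ± 0.28), Kcnma1 (-2.60 ± 0.59), the phosphatase subunits Ppp1r12b (-2.24 ± 0.27) and Ppp1r12a (-1.70 ± 0.14), and Tpm2 (-1.66 ± 0.19). Of the 9 non-muscle paralogs, 5 were called higher with EYFP and none lower. Myocd stood at 5.34 and 2.85 CPM with EYFP and at 56.9 and 29.5 CPM without it. The cells with both Actg2 and Tnnt2 UMIs held 46 of the 51 and 17 of the 21 Myocd UMIs of the cells without EYFP. Outside that set, described with no test, Myocd stood at 4.92 and 2.74 CPM with EYFP and at 7.50 and 7.01 CPM without, on 5 and 4 UMIs. Lmod1 then stood at 11.02 and 16.03 CPM against 12.002 and 14.02 CPM, and Tpm2 at 527 and 473 CPM against 425 and 457 CPM, so Tpm2 was higher with EYFP in both libraries. Ppp1r12b was still lower with EYFP, at 15.8 and 16.5 CPM against 34.5 and 28.0 CPM.

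The genes whose levels over the 24 columns of class and library were most like each contractile gene were listed by Pearson r of log2(CPM + 1), as a description; columns of 1 library share its depth. Acta2 was most like Myl9 (r = 0.957), Tagln most like Prkg1 (0.948), the kinase of relaxation by cGMP, and Cald1 most like Akap12 (0.977). Cnn1 and Actg2 were most like each other (0.962), with Myocd next for both (0.960 and 0.951), and Myh11 was most like Actg2 (0.936). Tnnt2 was most like the potassium channel gene Kcnk3 (0.914) and Actc1 most like Pdgfrb (0.933). Myl9 was most like Mgp (0.971) and Des most like Tpm2 (0.973).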

How the data were processed

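Single-cell suspensions of P0 kidneys were captured on the Chromium 10x platform and the 3' ends of cDNA sequenced, per the labels' protocols. The deposited values are raw UMI counts per gene and barcode, made by the authors with Cell Ranger 6.0.1 on mm10, per the submitters' processing notes; the header of the matrix files names Cell Ranger 4. Barcodes with at least 2000 UMIs and at most 10% mitochondrial UMIs were kept (6220 and 5149). Each was gated by the mean standardised log level of 13 marker lists, with at least 3 markers detected (2 for the stromal sub-gates), and called mixed where another lineage scored at least 0.5 of the best. No doublets were removed in the main values; Scrublet was an alternative. CPM are UMIs per 1000000 UMIs over the cells of a library and gate, given for replicate 1 and then replicate 2.

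Counts summed per library and gate were tested with edgeR 4.0.16 (TMM, low-count filter, quasi-likelihood test, library as a block) in R 4.3.3, with Benjamini-Hochberg adjustment over all genes and a threshold of 0.05. The block is used because the gates compared come from the same library. In simulated counts for the mural-like against stroma-like comparison (15663 genes), 49 of 100 genes changed by a log2 of 1 and 92 of 100 changed by a log2 of 2 were recovered, with 8 calls among 15463 unchanged genes. The simulation gave every gene the same spread and changed only genes above a minimum mean count. These rates need not hold for genes that differ more between libraries, as Cnn1 and Myh11 did in mural-like cells. Alternatives were DESeq2 1.42.0, other normalization, filters, gates, depth and mitochondrial limits, thinning, doublet removal and single libraries. Genes were named by rule: all 10 contractile genes, up to 6 of the 37 pathway genes per comparison with the largest called change and 1 sign across libraries, and up to 3 most similar genes each. The contractile genes and all lists were chosen with earlier results of these data known. Genes named in the cell sets were chosen after their values were seen. Intervals cover counting error only.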

Additional observations from a re-analysis of the deposited data

How the results depend on the processing

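Stroma-like against the other classes, endothelial-like, podocyte-like, cortical and medullary comparisons kept their counts of contractile genes called within 1.5 times under every alternative run. The number of members called in mural-like against stroma-like cells, 1 in the main analysis, was 4 with no filter on low counts, 3 with a mitochondrial limit of 5%, 2 with 2 markers needed and 2 with barcodes over 50000 UMIs left out. It was 0 with DESeq2, 0 with 4 markers needed, 0 with a mitochondrial limit of 20% and 0 with Scrublet doublets removed. For mesangial stroma-like cells, 1 member in the main analysis, the count was 2 with no filter, 2 markers, barcodes over 50000 UMIs left out, a limit of 5% or Scrublet, and 0 with DESeq2 or 4 markers. For adventitial fibroblast-like cells it rose from 3 members to 6 with no filter. For stroma-like cells with against without EYFP it fell from 8 members to 5 with a limit of 5%. Without the replicate block the members called were 0 in the mural-like and 0 in the mesangial comparison, and the block changed no other count of members by over 1.5 times. Values from a single library have no test. Cnn1 reversed in mural-like against stroma-like cells without replicate 2 (-0.83, against 1.12 with both and 2.37 without replicate 1), and Myl9 reversed by EYFP with a limit of 5% (0.37, against -0.58). The cause of these changes was not tested.

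Over all genes, the limit of 5%, which leaves fewer cells, called 1690 genes in cortical (3825 in the main analysis), 413 in medullary (1200) and 252 in mesangial stroma-like cells (634), 226 in mural-like cells (375) and 1154 by EYFP (1822). With no filter 975 were called in mesangial stroma-like cells and 707 in mural-like cells, with Scrublet 236 in mural-like cells, and with thinning to 4000 UMIs 794 by EYFP. Depth limits Actc1 most, with 218 and 162 UMIs in all kept barcodes.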
